A study of Homo sapiens with 6 samples.

Results

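The genes described here are 56 genes whose products carry out mitosis and chromosome segregation, listed by symbol and found by Ensembl identifier among the 62754 genes of a table of RNA-seq read counts. The rule that lists them uses function and no value of the table. The libraries came from HEK293 cells, a human embryonic kidney line that grows attached. The titles of the samples name HEK293, whereas another label names HEK293T, a derivative of it with the SV40 large T antigen. The controls were 3 libraries labelled only as control, and the labels give no vector, guide RNA or selection for them. The other 3 libraries were labelled as knockout of FAM60A (current symbol SINHCAF), which belongs to the histone-deacetylating Sin3/HDAC complex. For these, a CRISPR/Cas9 plasmid with several guide RNAs against the gene was transfected and cells were selected with puromycin as a pool, so the knockout libraries are from mixed cells and not from a clone. All cells were grown in the same medium with fetal bovine serum. Nothing in the labels says that replicates were separate cultures, so the p-values measure the spread between these libraries, which may be technical.

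Mitosis begins when cyclin-dependent kinase 1, bound to cyclins A and B, phosphorylates its targets, and polo and aurora kinases then build the bipolar spindle. Kinetochores attach each chromosome to spindle microtubules, and the spindle checkpoint holds back the anaphase-promoting complex until every chromosome is attached. That complex then marks cyclin B and securin for destruction, which frees separase to cut cohesin and lets the cell divide. Most of these genes are transcribed late in the cell cycle, in G2 and mitosis. Their promoters are known for a CCAAT box, bound by NF-Y, and for the cell cycle homology region (CHR), bound by MuvB complexes: DREAM represses through it in resting cells, and MuvB with B-MYB and FOXM1 activates in dividing cells. In RNA from a whole culture, fewer cells in mitosis and less RNA per cell cannot be told apart.

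Both elements were searched in RefSeq promoter windows of GRCh38.p14, from 250 bases before to 50 bases after each transcription start. Windows were held for 48 of the 56 genes, not for AURKA, BUB3, TTK, RACGAP1, TPX2, UBE2C, FOXM1 and BIRC5. The following 26-base stretches hold the CHR, in capitals, of genes at different steps of mitosis. They are shown because most of the genes with a window held this element.
CDK1, chr10:60778455-60778480, plus strand: gcgcggtgagTTTGAAactgctcgca
CCNB2, chr15:59105107-59105132, plus strand: cgacgcggtaTTTGAAtcctggaaca
PLK1, chr16:23678850-23678875, plus strand: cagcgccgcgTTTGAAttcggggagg
BUB1, chr2:110678047-110678072, minus strand: gcgcggggtaTTCGAAtcggcggcgg
MKI67, chr10:128126437-128126462, minus strand: ttcgttttcgTTTGAAttgggcgggc
HMMR, chr5:163460594-163460619, plus strand: tgtggggagaTTTGAATTTGAAaccg

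The CHR shown began 13 bases before the start in CDK1, and 29 bases before it in CCNB2, PLK1 and MKI67. The window of CDK1 held 3 matches in all and that of MKI67 held 2. HMMR held 2 copies in direct succession, and BUB1 carried the TTCGAA form at its start. Counting TTTGAA or TTCGAA on either strand, 35 of the 48 genes with a window (72.9%) held a CHR, against 19.5% of 27305 genes with a window. Within 50 bases of the start the shares were 60.4% of the mitosis genes and 6.2% of all genes. A match is a description of the letters, and binding was not measured in these data.

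CCAAT boxes are shown for the called genes AURKB, KIF20A and PTTG1, which had a window without a CHR, and for CCNB1, likewise without a CHR. Capitals mark CCAAT or its reverse complement ATTGG.
AURKB, chr17:8210364-8210388, minus strand: cagcgcccagATTGGggctagtgtg
KIF20A, chr5:138179035-138179059, plus strand: tccctatctgATTGGccgaacgaac
PTTG1, chr5:160421794-160421818, plus strand: ggcggaagagCCAATTGGgccgcga
CCNB1, chr5:69167085-69167109, plus strand: cacgaacaggCCAATaaggagggag

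A CCAAT box on either strand was present in 36 of the 48 genes (75.0%) and in 39.7% of all genes with a window, and 28 of the 48 (58.3%) held both elements, against 9.0% of all genes. In PTTG1 the box overlapped its own reverse complement. CCNB1 and KIF20A each held 2 boxes.

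Total counts were 88361827 to 93346824 per library. Of the 56 genes, 55 passed the filter on low counts and entered the test, in which 20992 genes were compared by edgeR's quasi-likelihood test with Benjamini-Hochberg adjustment over all of them. Levels are given in CPM, read counts scaled to a common library total with TMM factors, in the order of replicates 1, 2 and 3, with means ± SD over n = 3 libraries. A gene was called at an adjusted p of at most 0.05, and only called genes are said to have risen or fallen. SE is the standard error of the fitted log2 fold change, knockout over control. As a check of the labels, FAM60A stood at 113, 106 and 132 CPM in controls and at 67.5, 66.0 and 61.7 CPM in knockout libraries, and it fell by 0.85 log2 units (SE 0.11, edgeR adjusted p = 0.00863). Of 6 HEK293 marker genes all passed the filter, with a summed level of 360 to 451 CPM. LIN28B, NEFL, IGF2BP1 and IGF2BP3 were all above 30 CPM in every library, and levels of the others, NEFM and PAX2, are not given. All 6 were fitted lower in the knockout, and 1 was called. Blood cell markers summed to 0.339 to 0.594 CPM, with 4 of 5 left out by the filter, HBB at 0 counts in 5 libraries among them. Fibroblast markers summed to 23.5 to 29.1 CPM, and of the 4 that passed the filter 2 rose and 1 fell.

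Control replicate 3 stood apart from the other controls. Over 21031 genes, 1588 and 1554 differed at least 4-fold between it and control replicates 1 and 2, against 6 between those and 10 to 13 between knockout libraries. ANXA1, a marker of MDA-MB-231, the other line used in the study, stood at 286, 295 and 16.97 CPM in controls and at 22.1, 19.4 and 19.8 CPM in knockout libraries. The 6 markers of that line summed to 414 and 424 CPM in control replicates 1 and 2 and to 101 to 128 CPM in the other 4 libraries. ANXA1 alone made up most of the sums in control replicates 1 and 2. The markers did not all go the same way: control replicate 3 was the lowest of the 6 libraries for 4 of them and the highest for 2. The part of this difference in the results was not tested, and the results below are set beside the fit without control replicate 3.

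The mitosis genes were well measured: 53 of the 55 tested genes had at least 1000 counts in every library. Per kilobase of exon, 48 of the 55 had a control mean of at least 10 CPM per kb. The highest control levels on this scale were those of TOP2A (138 CPM per kb), MYBL2 (123), CDC20 (105), CCNB1 (102), CDK1 (98.3) and UBE2C (88.6). SGO1, with 3.75 CPM per kb, and CENPI, with 4.05, had the lowest levels apart from 2 genes whose exons are shared with another gene model. These were MAD1L1 and PRC1, and NUSAP1 was also of this kind.

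The counts of NUSAP1, a microtubule-bundling spindle protein, were 7, 3, 7, 4, 4 and 7 in control replicates 1 to 3 and knockout replicates 1 to 3, and it was left out by the filter. In the annotation used here, 81.4% of its exon bases lie in a second model on the same strand, ENSG00000285920, which had 0 counts in every library. MAD1L1 had 24, 28 and 14 counts in controls and 13, 12 and 14 in knockout libraries, and shares 43.2% of its exon bases with ENSG00000286192. PRC1 had 419, 391 and 267 counts in controls and 310, 295 and 309 in knockout libraries, while ENSG00000284946, which covers 57.6% of its exon bases, had 1334, 1301 and 1037 and then 873, 876 and 993. Levels of these 3 genes are therefore uncertain.

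Across the list, 8 of 55 genes were called (14.5%), against 16.6% of all genes tested. UBE2C, AURKA, AURKB, FOXM1 and TPX2 fell, and PTTG1, HMMR and KIF20A rose. The 5 that fell were 9.09% of the list, against 8.67% of all genes called lower. The 3 that rose were 5.45% of the list, against 7.96% of all genes called higher. UBE2C alone was called with a log2 fold change of 1 or more in size (1 of 55), against 7.06% of all genes. The share of mitosis genes called was thus close to that of all genes. The groups by role described below held 2 to 9 tested genes each. Their counts of calls were not tested against these shares.

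Most changes were small. The median absolute log2 fold change was 0.26 over the mitosis genes and 0.39 over all genes. These sets differ in level, with a median of the mean CPM of 111 and 8.81, and genes of equal level were not compared. Fitted values of the list ran from -1.06 for UBE2C to 0.57 for CENPE. Of the 55 genes, 36 were fitted lower in the knockout and 19 higher, with a median log2 fold change of -0.09 against -0.01 for all genes. Every knockout library lay below every control library for 16 genes (29.1%), against 20.1% of all genes, and above every control library for 8 genes (14.5%), against 21.5% of all genes. At an unadjusted p under 0.05 by edgeR there were 23 of the 55 genes, against 7249 of the 20992 genes tested. An adjusted p between 0.05 and 0.1 was found for 11 of the 55, 9 of them fitted lower. The number of all genes in that range is not given here.

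**Figure D1:**
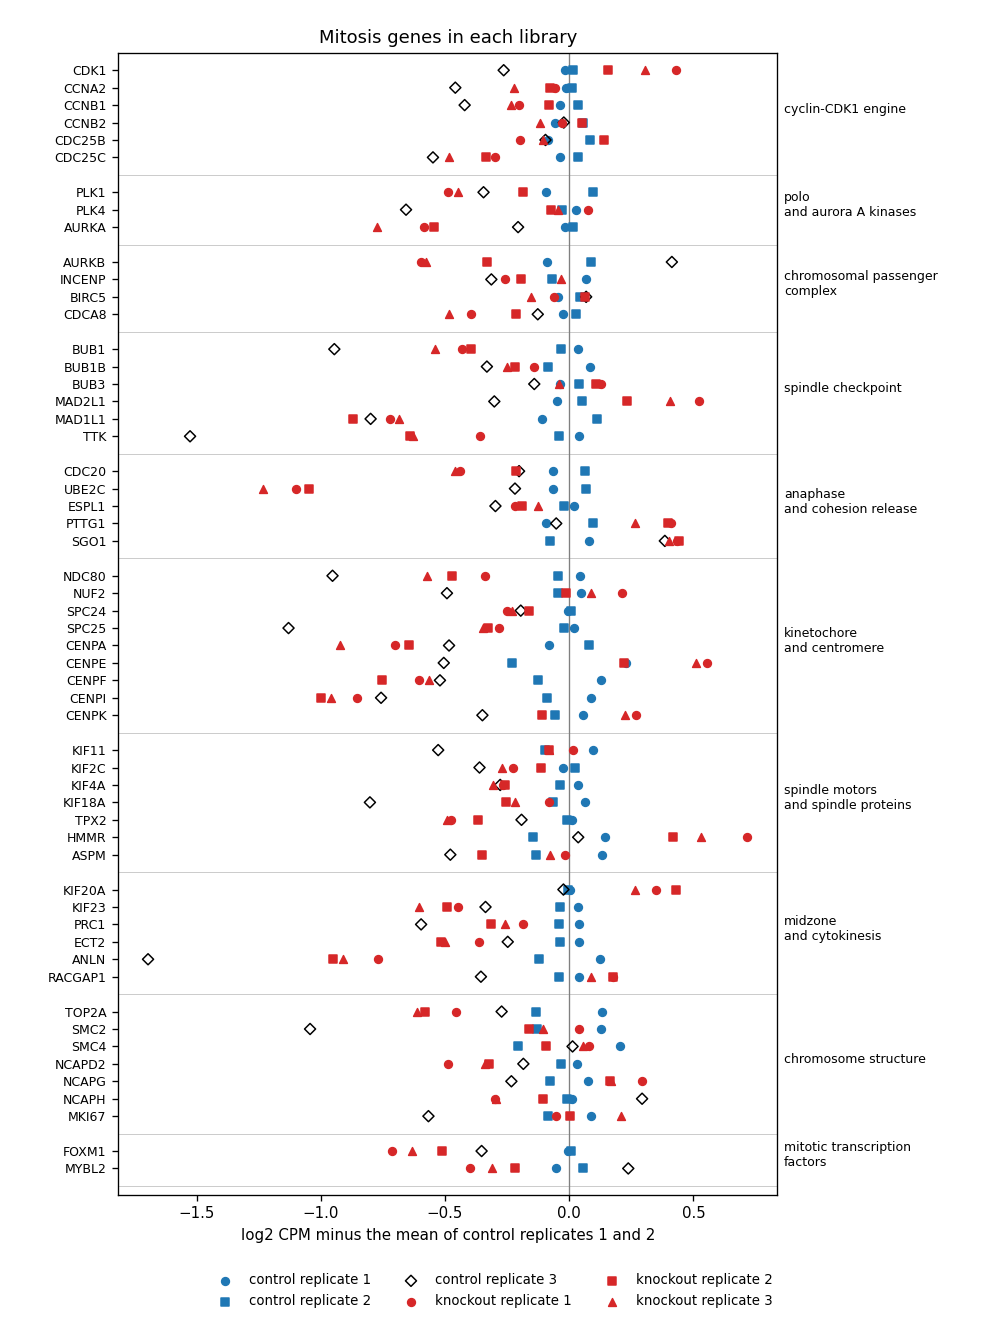
Level of each tested mitosis gene (55 rows, grouped by role) in each of the 6 libraries, as log2 CPM minus the mean of control replicates 1 and 2 on the x axis. Open diamonds are control replicate 3, which lay below both other controls for 46 of 55 genes, and red points are knockout libraries.

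The plot of levels by library shows how control replicate 3 bears on the list. It lay below both other controls for 46 of the 55 genes (83.6%), whereas this was so for 44.2% of all genes tested. It was the lowest of all 6 libraries for 28 (50.9%), against 25.1% of all genes, and lay above both other controls for AURKB, BIRC5, SGO1, NCAPH and MYBL2. The median difference of control replicate 3 from the other controls was -0.33 on the log2 scale over the mitosis genes and 0.01 over all genes.

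The summed level of the tested genes was 8833 and 8498 CPM in control replicates 1 and 2, 6991 CPM in control replicate 3, and 7793, 7579 and 7417 CPM in the knockout libraries. Knockout libraries were thus all between control replicate 3 and the other controls. Gene by gene, the knockout mean lay between them for 21 of 55 genes, below both for 20 and above both for 14. The same split over all genes is not given here, so it cannot be read as particular to this list. The median SD of log2 CPM was 0.21 among controls and 0.09 among knockout libraries. Over all genes tested it was 0.32 and 0.11, so controls spread more than knockout libraries there too.

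Control replicate 3 was at least 1.5-fold below the mean of the other controls for 11 of the 55 genes. This was so for 3829 of the 20992 genes tested, a similar share. Of the 11, the 3 with the widest gaps were picked after their values were seen. ANLN, the anillin of the cleavage furrow, stood at 273, 230.0 and 77.3 CPM in controls and at 147, 129.6 and 133 CPM in knockout libraries. TTK, the checkpoint kinase also called MPS1, stood at 245, 232 and 82.8 CPM and then at 186, 153 and 154 CPM. SPC25, a subunit of the NDC80 complex, stood at 65.5, 63.7 and 29.5 CPM and then at 53.1, 51.5 and 50.8 CPM. In all 3 genes the knockout libraries lay close together, between control replicate 3 and the other controls. With that library left out, the log2 fold changes of ANLN, TTK and SPC25 were -0.91, -0.57 and -0.35 and were called, whereas with all libraries they were -0.50, -0.18 and -0.03 and were not.

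Without control replicate 3, 40 of the 55 genes were called (72.7%), against 65.6% of all genes tested in that fit. Of these, 33 fell, or 60.0% of the list, against 33.2% of all genes, and 7 rose, or 12.7%, against 32.4% of all genes. Only UBE2C was called with a log2 fold change of 1 or more in size, against 22.9% of all genes. The median log2 fold change of the list was then -0.24. The 7 genes that rose were CDK1, MAD2L1, PTTG1, SGO1, CENPE, HMMR and KIF20A.

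**Figure D2:**
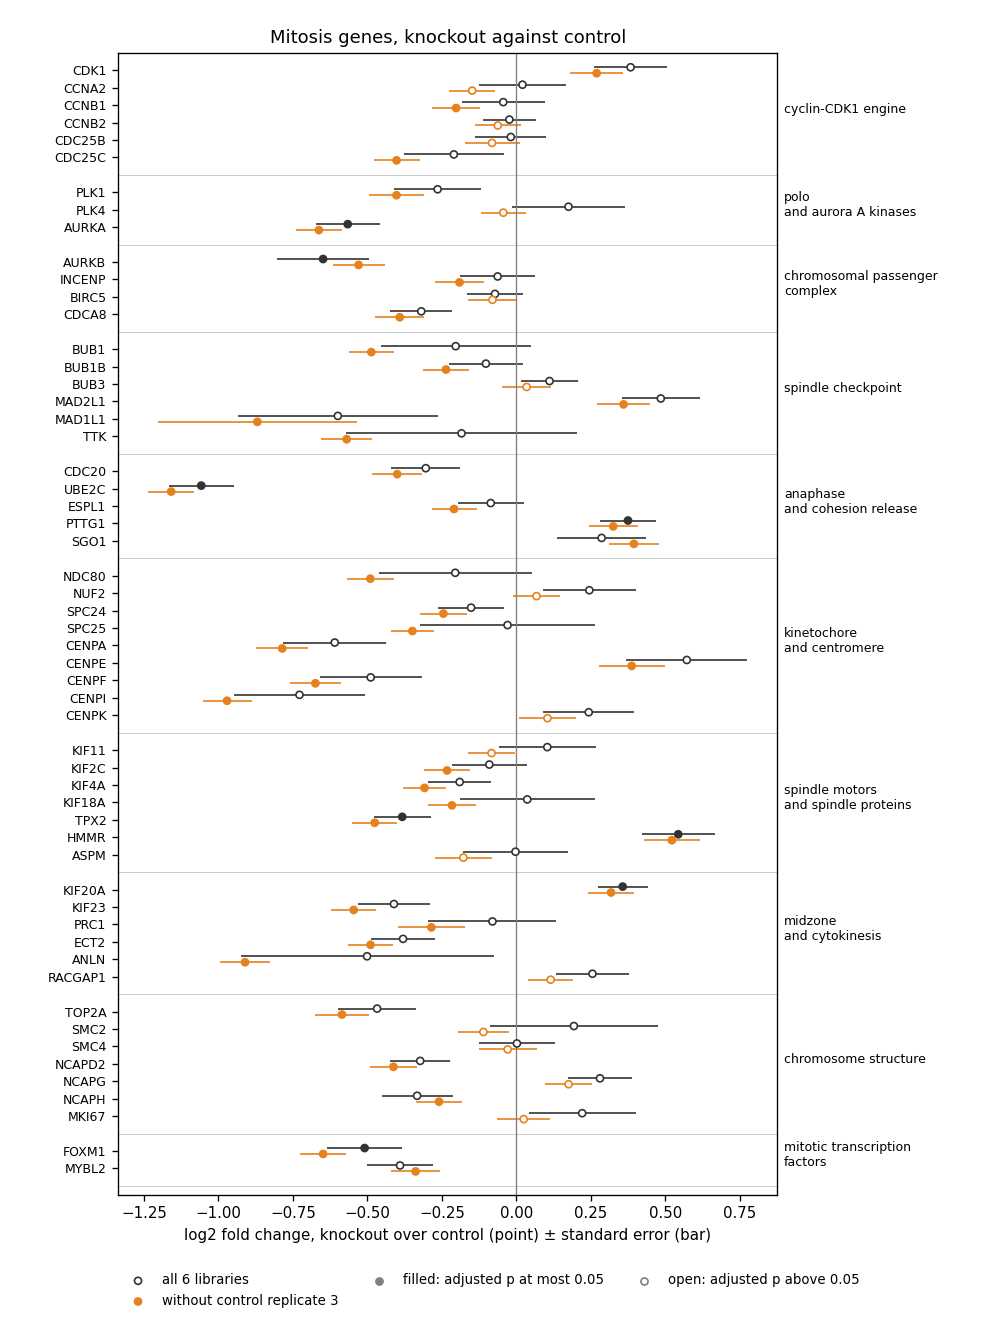
Fitted log2 fold change of each tested mitosis gene, knockout over control, with its standard error, over all 6 libraries (black) and without control replicate 3 (orange). Filled points have an adjusted p of at most 0.05 by edgeR's quasi-likelihood test, 8 of 55 in the first fit and 40 of 55 in the second.

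Anaphase regulators held the largest change. UBE2C, the ubiquitin-conjugating enzyme that works with the anaphase-promoting complex, stood at 114, 125 and 103 CPM in controls and at 55.7, 57.7 and 50.8 CPM in knockout libraries. All knockout libraries were near the same level, and the lowest control was well above the highest of them. From 114 ± 11.2 to 54.7 ± 3.55 CPM, UBE2C fell by 1.06 log2 units (SE 0.11, edgeR adjusted p = 0.0051). In the fit without control replicate 3 it fell by 1.16. Its adjusted p was 0.0534 without knockout replicate 1 and 0.0502 without knockout replicate 3, within a range of 4.7e-13 to 0.0534 over 13 alternatives, of which 11 called it.

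PTTG1, securin, the inhibitor of separase that is destroyed at anaphase, stood at 136, 156 and 141 CPM in controls and at 194, 192 and 175 CPM in knockout libraries, without overlap. It rose by 0.38 log2 units (SE 0.09, edgeR adjusted p = 0.0442), and by 0.33 without control replicate 3. CDC20, the activator of the anaphase-promoting complex that the checkpoint blocks, stood at 210.3, 229.9 and 191 CPM and then at 162, 189.5 and 159.7 CPM. Its knockout libraries were lower without overlap, but control replicate 3 and knockout replicate 2 were nearly level, and the log2 fold change of -0.30 (SE 0.11) was not called, with an edgeR adjusted p of 0.119. In the fit without control replicate 3, CDC20 and ESPL1 fell by 0.40 and 0.21. ESPL1, separase itself, had with all libraries a log2 fold change of -0.09, with knockout libraries at 155 to 166 CPM inside the controls' range of 147 to 184 CPM. SGO1, shugoshin, which shields centromeric cohesin, stood at 13.4, 12.04 and 16.6 CPM and then at 17.2, 17.3 and 16.8 CPM. Its groups did not overlap, yet control replicate 3 was almost level with the knockout libraries, and it was called without that library only (log2 fold change 0.40, against 0.29 with it). In this group of 5 genes, 1 rose and 1 fell.

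Of the kinases that build the spindle, AURKA, aurora A of the centrosomes, stood at 115, 118 and 101 CPM in controls and at 77.5, 79.7 and 68.1 CPM in knockout libraries. The groups were well apart, and AURKA fell by 0.57 log2 units (SE 0.11, edgeR adjusted p = 0.0207), and by 0.66 without control replicate 3. PLK1, the polo kinase of mitotic entry and spindle assembly, stood at 179.9, 205 and 151 CPM and then at 137, 169 and 141 CPM, so that control replicate 3 lay within the knockout range. Its log2 fold change of -0.26 (SE 0.15) was not called, with an edgeR adjusted p of 0.248. It was -0.40 and called in the fit without control replicate 3. PLK4, which starts centriole duplication, was at 52.0 to 57.6 CPM in knockout libraries and at 55.8, 53.6 and 34.7 CPM in controls, and was called in neither fit.

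AURKB, aurora B, the kinase of the chromosomal passenger complex that corrects faulty attachments, stood at 141, 159 and 199.8 CPM in controls and at 99.3, 119 and 101 CPM in knockout libraries. Here control replicate 3 was the highest library and the farthest from the knockout libraries. AURKB fell by 0.65 log2 units (SE 0.15, edgeR adjusted p = 0.0378), and by 0.53 without control replicate 3. CDCA8, borealin of the same complex, stood at 90.3, 93.7 and 84.3 CPM and then at 70.0, 79.3 and 65.8 CPM, a log2 fold change of -0.32 with an edgeR adjusted p of 0.0825. INCENP, the scaffold of the complex, and BIRC5, survivin, had log2 fold changes of -0.06 and -0.07, with overlapping groups. Of the 4 subunits, 1 fell and none rose, and all 4 were fitted lower, with a median of -0.20. CDCA8 and INCENP were called when control replicate 3 was left out, at -0.39 and -0.19.

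TPX2, which activates aurora A on spindle microtubules, stood at 231, 228 and 201 CPM in controls and at 165, 178 and 163 CPM in knockout libraries. Its groups did not overlap, and TPX2 fell by 0.38 log2 units (SE 0.10, edgeR adjusted p = 0.0429), and by 0.48 without control replicate 3. HMMR, the spindle-binding receptor for hyaluronan whose promoter holds the tandem CHR shown above, stood at 94.5, 77.3 and 87.7 CPM and then at 141, 114 and 124 CPM. All knockout libraries were above all controls, with control replicate 3 between the others, and HMMR rose by 0.54 log2 units (SE 0.12, edgeR adjusted p = 0.0317), and by 0.52 without control replicate 3. The motor genes KIF11, KIF2C, KIF4A and KIF18A and the spindle pole gene ASPM had log2 fold changes from -0.19 to 0.10 and were not called. Leaving out control replicate 3 brought calls for KIF2C, KIF4A and KIF18A, at -0.23, -0.31 and -0.22. Among the 7 tested genes of spindle motors and spindle proteins, 1 rose and 1 fell.

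For the midzone and cytokinesis, KIF20A, the kinesin that carries the passenger complex to the central spindle, stood at 94.2, 93.6 and 92.4 CPM in controls and at 119.7, 127 and 113 CPM in knockout libraries. The controls agreed closely, control replicate 3 included, and KIF20A rose by 0.36 log2 units (SE 0.08, edgeR adjusted p = 0.0361), and by 0.32 without control replicate 3. KIF23, the kinesin of centralspindlin, stood at 197, 188 and 153 CPM and then at 141, 137 and 127 CPM, with an edgeR adjusted p of 0.0664 and a log2 fold change of -0.41. Its partner in centralspindlin, RACGAP1, stood at 177, 167 and 135 CPM and then at 194, 195 and 183 CPM. The groups of both genes did not overlap but lay in opposite directions, and the edgeR adjusted p of RACGAP1 was 0.192. ECT2, the exchange factor that activates RhoA at the furrow, was lower without overlap, with a log2 fold change of -0.38 and an edgeR adjusted p of 0.0578. Of 6 genes, 1 rose and none fell. With control replicate 3 left out, KIF23 and ECT2 fell by 0.55 and 0.49, and RACGAP1, at 0.12, was not called.

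FOXM1, the forkhead factor that switches on genes of G2 and mitosis, stood at 137, 138 and 108 CPM in controls and at 83.8, 96.3 and 88.7 CPM in knockout libraries. Control replicate 3 was the lowest control and still above every knockout library. FOXM1 fell by 0.51 log2 units (SE 0.13, edgeR adjusted p = 0.0419), and by 0.65 without control replicate 3. In the annotation used here 15.9% of its exon bases lie opposite ITFG2. MYBL2, B-MYB of the MuvB complex, stood at 309.7, 334 and 379 CPM and then at 244, 277 and 259.6 CPM. Its groups did not overlap, with control replicate 3 the highest library, and its log2 fold change of -0.39 (SE 0.11) had an edgeR adjusted p of 0.059. Both factors were fitted lower, and MYBL2 fell by 0.34 in the fit without control replicate 3.

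**Figure D3:**
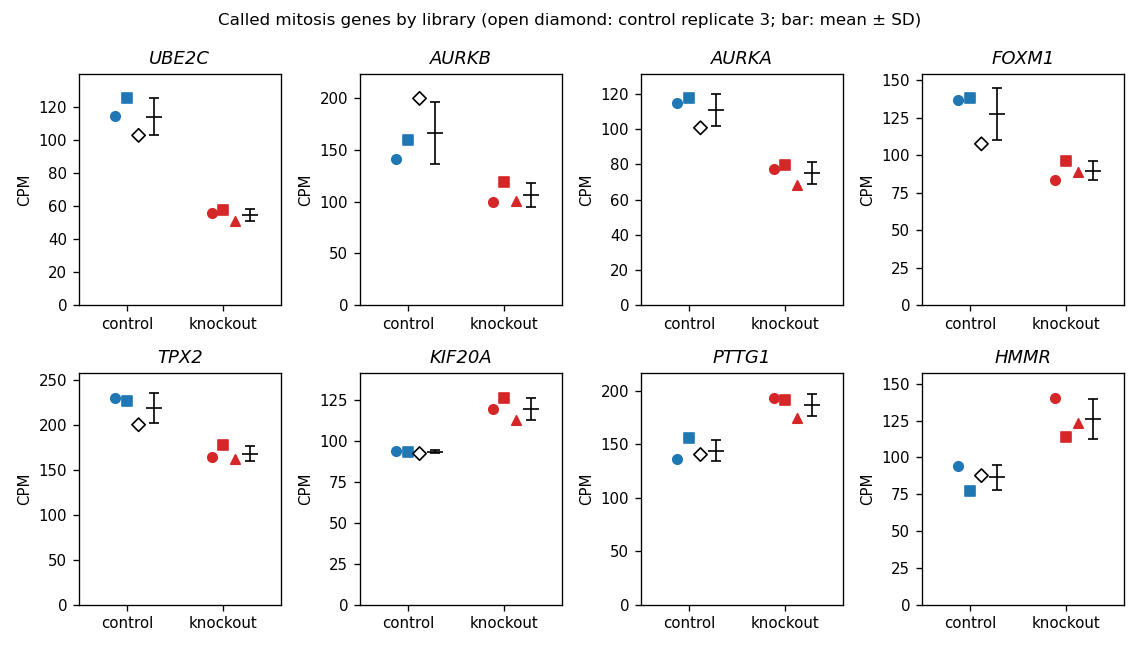
CPM by library (y axis, from 0) for the 8 called mitosis genes, with the mean ± SD of 3 libraries beside each group and control replicate 3 as an open diamond. The groups do not overlap in any of the 8 panels; UBE2C fell from 114 to 54.7 CPM and HMMR rose from 86.5 to 126 CPM.

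All 8 genes stayed called when control replicate 3 was left out, but few did when any other library was. Leaving out control replicate 1, control replicate 2, or knockout replicates 1, 2 or 3 in turn left 2, 1, 0, 1 and 0 of the 55 genes called by edgeR. The gene beside UBE2C in the fit without control replicate 1 was AURKB (adjusted p = 0.0478, range 1.73e-05 to 0.17 over 13 alternatives). In the fits with no call, 14 genes without knockout replicate 1 and 16 genes without knockout replicate 3 had an unadjusted p under 0.05. Across those 5 fits the edgeR adjusted p ran from 0.0681 to 0.107 for AURKA, from 0.108 to 0.178 for FOXM1, from 0.113 to 0.183 for TPX2, from 0.087 to 0.175 for PTTG1, from 0.0674 to 0.14 for HMMR and from 0.11 to 0.152 for KIF20A. The share of all genes called fell alongside, to between 0.763% and 4.89%. The direction of the 3 higher genes held under every scaling tried, but with library size in place of TMM, which moves the median log2 fold change of all genes to -0.12, 14 genes were called lower and 0 higher.

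In the cyclin-CDK1 engine 0 of 6 genes were called, against 16.6% of all genes tested. CDK1, the kinase itself, stood at 402, 411 and 339 CPM in controls and at 547, 454 and 502 CPM in knockout libraries. Knockout libraries were higher without overlap, control replicate 3 was the lowest library, and the log2 fold change of 0.38 (SE 0.12) had an edgeR adjusted p of 0.078. CCNB1, cyclin B1, stood at 264, 277 and 202 CPM and then at 235, 256 and 229.9 CPM, inside the range of the controls, with a log2 fold change of -0.04 (SE 0.14) and an edgeR adjusted p of 0.849. CCNA2, CCNB2, the phosphatase CDC25B and its relative CDC25C had log2 fold changes from -0.21 to 0.02, all with overlapping groups. At an unadjusted p under 0.05 there was 1 of the 6 genes, CDK1. Without control replicate 3, CDK1 rose by 0.27, and CCNB1 and CDC25C fell by 0.20 and 0.40.

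Of the spindle checkpoint, 0 of 6 genes were called by edgeR, against 16.6% of all genes tested. An unadjusted p under 0.05 was found for 1 of the 6. That gene was MAD2L1, MAD2, which forms the inhibitory complex with CDC20, at 290.0, 311 and 244 CPM in controls and 431, 353 and 398 CPM in knockout libraries. All knockout libraries were above all controls, and the log2 fold change of 0.49 (SE 0.13) had an edgeR adjusted p of 0.0516, just over the threshold. BUB1, the kinase that brings checkpoint proteins to the kinetochore, stood at 177, 169 and 89.7 CPM and then at 128, 131 and 119 CPM. The knockout libraries were close together and control replicate 3 was below them, so that the log2 fold change was -0.20 with all libraries (SE 0.25, edgeR adjusted p = 0.605) and -0.49 without control replicate 3, where it was called. MAD1L1, the partner of MAD2, was among the 5 lowest fitted values (-0.60, SE 0.34, edgeR adjusted p = 0.252) but rested on 28 counts at most per library. BUB1B and BUB3 had log2 fold changes of -0.10 and 0.11. When control replicate 3 was left out, MAD2L1 rose by 0.36, BUB1B fell by 0.24 and MAD1L1 fell by 0.87.

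At the kinetochore and centromere, 0 of 9 genes were called by edgeR, against 16.6% of all genes tested. An unadjusted p under 0.05 was found for 4 of the 9, against 7249 of the 20992 genes tested. CENPA, the histone H3 variant that marks centromeres, stood at 29.4, 32.8 and 22.2 CPM in controls and at 19.1, 19.8 and 16.4 CPM in knockout libraries, with a log2 fold change of -0.61 (SE 0.17) and an edgeR adjusted p of 0.0582. CENPI, of the constitutive centromere network, stood at 34.8, 30.7 and 19.3 CPM and then at 18.1, 16.3 and 16.8 CPM, with a log2 fold change of -0.73 (SE 0.22) and an edgeR adjusted p of 0.0705. In both genes the groups did not overlap and control replicate 3 was the control nearest to the knockout libraries. CENPE, the kinesin that moves chromosomes to the spindle equator, had the highest fitted log2 fold change of the list, 0.57 (SE 0.20), at 109.7, 79.9 and 66.0 CPM and then at 138, 109 and 133 CPM. Control replicate 1 was slightly above knockout replicate 2, and the edgeR adjusted p was 0.102.

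Within the NDC80 complex, NDC80, NUF2, SPC24 and SPC25 had log2 fold changes of -0.21, 0.25, -0.15 and -0.03, none of them called. The outer kinetochore protein CENPF was lower without overlap, with a log2 fold change of -0.49, and CENPK had one of 0.24. Without control replicate 3, CENPA, CENPI, CENPF, NDC80, SPC24 and SPC25 fell and CENPE rose, by log2 fold changes from -0.97 to 0.39. All 9 genes of this group were lower in control replicate 3 than in both other controls.

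Among genes of chromosome structure, 0 of 7 were called by edgeR, against 16.6% of all genes tested. An unadjusted p under 0.05 was found for 4 of the 7, against 7249 of the 20992 genes tested. TOP2A, topoisomerase II alpha, which untangles sister chromatids, stood at 1019.7, 849 and 771 CPM in controls and at 678, 623 and 608 CPM in knockout libraries. Its groups did not overlap, and the log2 fold change of -0.47 (SE 0.13) had an edgeR adjusted p of 0.0561. Leaving out control replicate 3 gave a called fall by 0.59. MKI67, Ki-67, the proliferation marker that coats mitotic chromosomes, stood at 168, 149 and 107 CPM and then at 153, 159 and 183 CPM, with overlap and a log2 fold change of 0.22 (SE 0.18, edgeR adjusted p = 0.424). It was called in none of 13 alternatives, with adjusted p from 0.315 to 0.818.

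The 5 subunits of condensin I, the complex that compacts mitotic chromosomes, differed in direction. NCAPD2 and NCAPH were lower without overlap, with log2 fold changes of -0.32 and -0.33, NCAPG was higher without overlap with 0.28, and SMC2 and SMC4 had 0.19 and 0.00. Of NCAPG, 33.7% of exon bases lie opposite LCORL. Without control replicate 3, NCAPD2 and NCAPH fell by 0.41 and 0.26, and SMC2, SMC4 and NCAPG were not called.

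The called genes were few on either side of the promoter elements. Of 34 tested genes with a CHR in their window, 1 was called, HMMR. Of 13 without, 3 were called, PTTG1, KIF20A and AURKB, and the share over all genes tested was 16.6%. No difference between the sides, or from that share, was tested. The median log2 fold change was -0.07 with and -0.09 without a CHR, and the median difference of control replicate 3 from the other controls was -0.33 with and -0.35 without. UBE2C, AURKA, FOXM1 and TPX2 are among the genes for which no window was held.

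Other genes of the same processes, in 9 lists, gave 20 calls among 130 tested genes (15.4%), against 16.6% of all genes. Of these calls 9 were higher and 11 lower, and the median log2 fold change was -0.03. With control replicate 3 left out there were 86 calls (66.2%), 29 higher and 57 lower, against 65.6% of all genes. RAD21, the cohesin subunit cut by separase, stood at 227, 211 and 237 CPM in controls and at 344, 349.6 and 325 CPM in knockout libraries, and rose by 0.60 log2 units (SE 0.09, edgeR adjusted p = 0.0119). CDCA5, sororin, which holds cohesin on chromosomes, fell by 0.53. The groups of both did not overlap. FBXO5, EMI1, the inhibitor of the anaphase-promoting complex, stood at 136, 133 and 82.6 CPM and then at 67.0, 65.6 and 61.6 CPM, and fell by 0.86 (SE 0.20, edgeR adjusted p = 0.0346). PKMYT1, a kinase that restrains CDK1, rose by 0.49.

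Of the anaphase-promoting complex and its activators, the subunits ANAPC10 and ANAPC4 rose by 0.89 and 0.57 and the activator FZR1, CDH1, fell by 0.57. At the kinetochore CENPT and MIS12 fell by 0.63 and 0.59. Among spindle genes HAUS8, of the augmin complex, fell by 0.78 and DLGAP5, HURP, rose by 0.46. The condensin II subunit NCAPG2 fell by 0.60. Of cytokinesis, CHMP4B and VPS4A of the membrane-cutting ESCRT machinery fell by 0.69 and 0.42. CENPJ, of centriole growth, rose by 0.43. Of DREAM and MuvB, E2F4 and RBL2 fell by 0.65 and 0.51, and LIN37 rose by 0.90. Of these genes, ANAPC10, VPS4A and LIN37 share 22.6%, 21.0% and 26.7% of their exon bases with another model on the same strand, with at most 8 counts in any library, and 24.7% of PKMYT1 lies opposite PAQR4. Over the 13 alternatives the highest adjusted p of each of these genes lay between 0.0779 (E2F4) and 0.191 (VPS4A), and each of them was called without control replicate 3.

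Genes of the preceding cell cycle step, G1/S and DNA replication, gave 7 calls among 25 genes (28%), against 16.6% of all genes. Of these calls 4 were higher and 3 lower, and the median log2 fold change was -0.02. That list gave 16 calls (64%), 7 higher and 9 lower, without control replicate 3, against 65.6% of all genes. No difference between that list and the mitosis list was tested. Control replicate 3 lay below both other controls for 60.0% of those 25 genes and for 68.5% of the 130 other genes of mitosis, beside the 83.6% of the mitosis list.

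**Figure D4:**
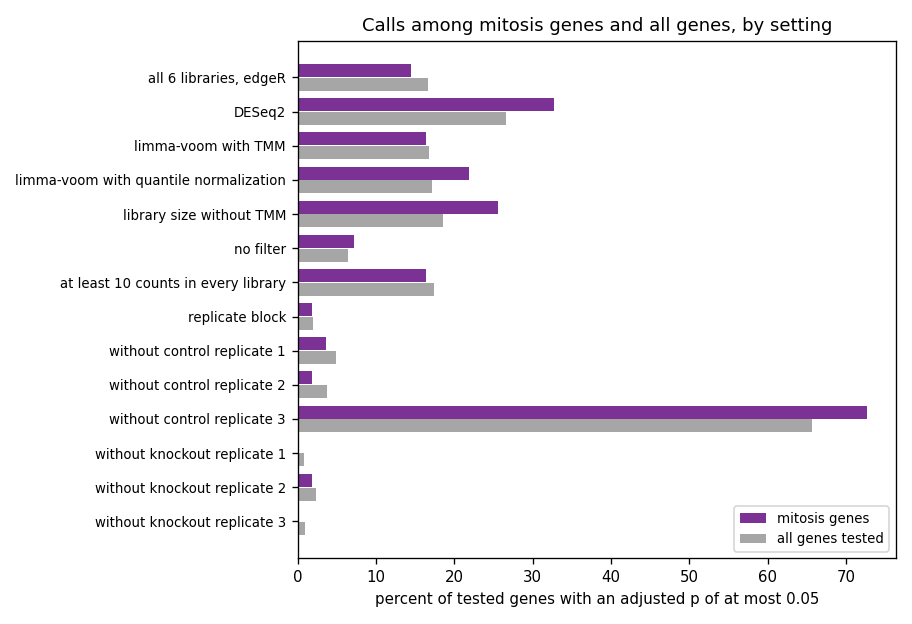
Percent of tested genes with an adjusted p of at most 0.05 (x axis) among the mitosis genes and among all genes, for the fit over all 6 libraries and 13 alternatives. The mitosis genes follow all genes, from 0% without knockout replicate 1 or 3 to 72.7% without control replicate 3, where all genes reach 65.6%.

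The plot of calls by setting shows that the share among mitosis genes moved with the share among all genes from setting to setting. It was above that of all genes with DESeq2 (32.7% against 26.6%), with library size in place of TMM (25.5% against 18.6%), with quantile normalization (21.8% against 17.2%), with no filter (7.14% against 6.45%) and without control replicate 3. It was below that of all genes in the fit over all 6 libraries and under the other 8 alternatives.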

How the data were processed

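The authors deposited whole-number read counts per Ensembl gene, not normalized. Per the labels, poly(A) RNA was sequenced, with hg19 named in one place and hg38 in another. The submitters' processing notes list STAR 2.7.10b and featureCounts 2.0.0, whereas the paper's methods describe Trimmomatic, Salmon and strand-specific libraries. Which of these made the counts, and the annotation release, are not given in the sources used here. No deposited column was left unmapped.

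Of 62754 gene IDs, 60878 matched a symbol. Exon length and overlap came from GENCODE lifted to GRCh37, and promoter windows from RefSeq (GRCh38.p14). Counts were compared in edgeR 4.0.16 (R 4.3.3): filterByExpr with a minimum count of 10, TMM, glmQLFit and the two-sided glmQLFTest over 20992 genes with Benjamini-Hochberg adjustment, called at 0.05. Log2 CPM used a prior count of 2. The fit was also run on simulated counts with less spread than these data and no library set apart. There it called all 200 genes changed by 1 log2 unit, with 11 false calls, which does not measure its precision here. Alternatives were DESeq2 1.42.0, limma-voom (limma 3.58.1) with TMM or quantile normalization, no scaling beyond library size, all genes unfiltered, at least 10 counts in every library, the replicate number as a block and leaving out each library. Exact permutation tests of 3 against 3 libraries cannot go below p = 0.1 and were not used. Library pairs were compared at genes averaging at least 10 counts. Figures were drawn with Python 3.11.15 and matplotlib 3.10.9.

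The 56 members and all other lists were chosen with earlier results of these data known. Full statistics were given for called members, for the 5 highest and 5 lowest fitted values, and for CDK1, CCNB1, PLK1, AURKA, AURKB, BUB1, CDC20, TOP2A, FOXM1, MYBL2 and MKI67. In each list of other genes up to 3 called genes of largest change were named. A called gene of these lists is not reported here. Values of further members were given to account for the list.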

Additional observations from a re-analysis of the deposited data

How the results depend on the processing

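The number of mitosis genes called was 8 with all 6 libraries. It was 9 with limma-voom and TMM, 12 (3 higher, 9 lower) with limma-voom and quantile normalization, and 9 with at least 10 counts in every library. It was 18 (4 higher, 14 lower) with DESeq2, 14 (0 higher, 14 lower) with library size without TMM and 4 without a filter. Left out in turn, single libraries gave 0 to 40 calls, the highest without control replicate 3. Calls with a log2 fold change of 1 or more in size ran from 0 to 1 in those fits, with 0 without control replicate 2, knockout replicate 1 or knockout replicate 3, and were 1 under every other setting. The median log2 fold change ran from -0.236 (without control replicate 3) to -0.0527 in those fits, and from -0.20 to -0.07 under the other settings. The cause of these differences was not tested. With the replicate number as a replicate block, 1 gene, UBE2C, was called. Same-numbered control and knockout libraries did not deviate together (r = 0.01, 0.03 and -0.04 across genes, which are not independent replicates). Deviations were taken from group means that control replicate 3 shifts, so these values cannot tell whether the numbers pair the samples. Of 520 values for single genes under alternatives, 321 stayed on their side of the threshold, 174 kept their direction but lost the call, 25 gained a call and 0 turned direction while called. Tested genes had 12 to 99133 counts per library, and MAD1L1 and PRC1 were those with fewer than 1000 in some library. With 3 libraries a group, the number of calls moved most when control replicate 3 was left out.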
